A study of Mus musculus with 16 samples.

Results

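Pressure overload of the left ventricle was followed here in hearts that lack PPARalpha, by comparing 4 arrays of PPARalpha-/- mice after transverse aortic constriction (TAC) with 4 arrays of sham-operated PPARalpha-/- mice. The 8 arrays, labelled KO TAC 1 to 4 and KO sham 1 to 4, are 8 of the 16 in the study, and the other 8 hold wild-type mice after the same procedures. RNA of the left ventricle was taken at day 28 and hybridised to Affymetrix 430 2.0 arrays, so every value is a scaled array signal, a brightness with no unit. Both groups are PPARalpha-/-, with no Cre or tissue limit named in the labels, so the receptor was lacking in the sham hearts too. The operation is the difference between the groups that the labels name, and some array measures described below differed as well. The sources used here state no strain, sex or age, nor whether an array holds 1 mouse or a pool. Since no label ties the replicates to separate animals, each p-value reflects only how far these arrays spread, and that spread may be technical.

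TAC narrows the aorta between the arteries of the arch, and the left ventricle then pumps against a raised pressure. The myocardium answers with growth of the cardiomyocytes, re-expression of genes of the fetal heart, and deposition of collagen and other matrix by fibroblasts. PPARalpha is a nuclear receptor that binds fatty acids, pairs with a retinoid X receptor and drives transcription of the genes of fatty acid uptake and oxidation, the main fuel route of the adult heart. The comparison asks what remodelling looks like when this receptor is missing from the start.

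The 3 probe sets for Ppara, the deleted gene, gave signals between 180 and 748 on the 8 PPARalpha-/- arrays and between 760 and 3259 on the 8 wild-type arrays, so the genotype labels were borne out on every array. The probe set carried into the tests read 727, 562, 652 and 524 on the sham arrays and 525, 424, 507 and 388 on the TAC arrays of the PPARalpha-/- group (log2 difference -0.42 ± 0.17, adjusted p = 0.232). It was called lower after TAC on the mean of its 3 probe sets (log2 -0.78, adjusted p = 0.036). Another probe set read 401 to 748 on the sham arrays and 180 to 352 on the TAC arrays, with no overlap. Quantile normalization made that probe set the brightest of the gene, and it was called lower there (log2 -1.32, adjusted p = 0.0080). The sources used here do not give the exons that the allele lacks, so what these remaining signals read is unknown.

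The tissue label was checked against cell type markers. All 14 cardiomyocyte markers passed, and their signals summed to between 772455 and 922718 on the sham arrays and between 673758 and 839082 on the TAC arrays. Of 7 listed adipocyte markers none passed the filter on dim genes, which left out the 40% of genes lowest in mean signal over all 16 arrays; 2 of 11 lymphocyte, 3 of 7 neutrophil and 1 of 6 erythrocyte markers passed it. Atrial genes varied within the groups: Myl7, the atrial regulatory light chain, read 887, 467, 2626 and 12058 on the sham arrays and 1871, 487, 2117 and 160 on the TAC arrays. Sln and Myl4, also atrial, read 5816 and 8451 on sham replicate 4 and no more than 1142 and 2279 on the other 3 sham arrays. Myl7, Sln and Myl4 were named after their values were seen, sham replicate 4 was the highest array for each of them, and none was called between the groups. Nppa and Myl1, the 2 of 7 atrial markers called higher after TAC, are on the same list, and the part of atrial tissue in their values was not tested.

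Some array measures moved with the operation. The submitters' software had scaled every array to the same trimmed mean of 500, and median signals were 124 to 141 on the sham arrays and 108 to 135 on the TAC arrays. The log2 signal of the hybridisation spike-ins, control transcripts added to each sample, was 12.40 to 12.90 on the sham arrays and 12.002 to 12.68 on the TAC arrays, lowest on TAC replicates 2 and 3. The ratio of the 3' to the 5' probe set of Actb, a measure of RNA integrity and labelling, was 1.52 to 1.75 on the sham arrays and 1.18 to 1.36 on the TAC arrays, with no overlap, while that of Gapdh was 0.738 to 0.769 and 0.765 to 0.789. The part of the Actb ratio in the results below was not tested.

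Remodelling without PPARalpha touched many genes. Of 10916 genes tested, 280 were called, meaning an adjusted p under 0.05 in limma's fit, which is 2.57% of genes: 173 were higher after TAC (1.58%) and 107 lower (0.98%). A called gene that rose did so by a median of 1.69-fold, and one that fell by a median of 1.55-fold. Changes of at least 2-fold were found for 46 of the genes called higher and 15 of those called lower. Signals on the 4 TAC arrays lay entirely above or below those on the 4 sham arrays for 1176 genes (10.8%), 592 higher and 584 lower, and 270 of the 280 called genes were among them. Centring each array on its median moved the median of all genes from 0.00026 to 0.13 on the log2 scale and left 158 genes called higher and 18 lower. Quantile normalization instead called 175 higher and 119 lower and shared 257 of the 280 calls, so the number of falls called depends on which rescaling is used. Fewer genes passed when single arrays were left out: 110 without TAC replicate 2, 141 without TAC replicate 3, 152 to 157 without sham replicate 2, 3 or 4, 182 without TAC replicate 4, and 228 and 274 without sham replicate 1 and TAC replicate 1. Without TAC replicates 2 and 3 together, the arrays of lowest spike-in signal, and wild-type TAC replicate 3, 55 were called, and 125 were called once spike-in signal was a covariate. All 280 genes kept their direction in each of these fits. Of the genes named below, 33 were called lower and 11 of them with centred arrays too: Ano10, Ces1d, Acaa2, Gstt1, Inmt, Ramp1, Scara5, Wee1, Kdm6b, Snx22 and C1qtnf4. Of 57 called higher, 54 were called with centred arrays, Mmp2, Tgfbr1 and Tubb2a being lost. Averaging all probe sets of a gene left 122 genes called and ended 36 of the named calls, among them those of Emp1, Loxl1, Scara5, Foxo3, Kdm6b, Wee1, Nnt, Ndufv1, Hadh and Pfkp (adjusted p 0.058 to 0.523).

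**Figure D1:**
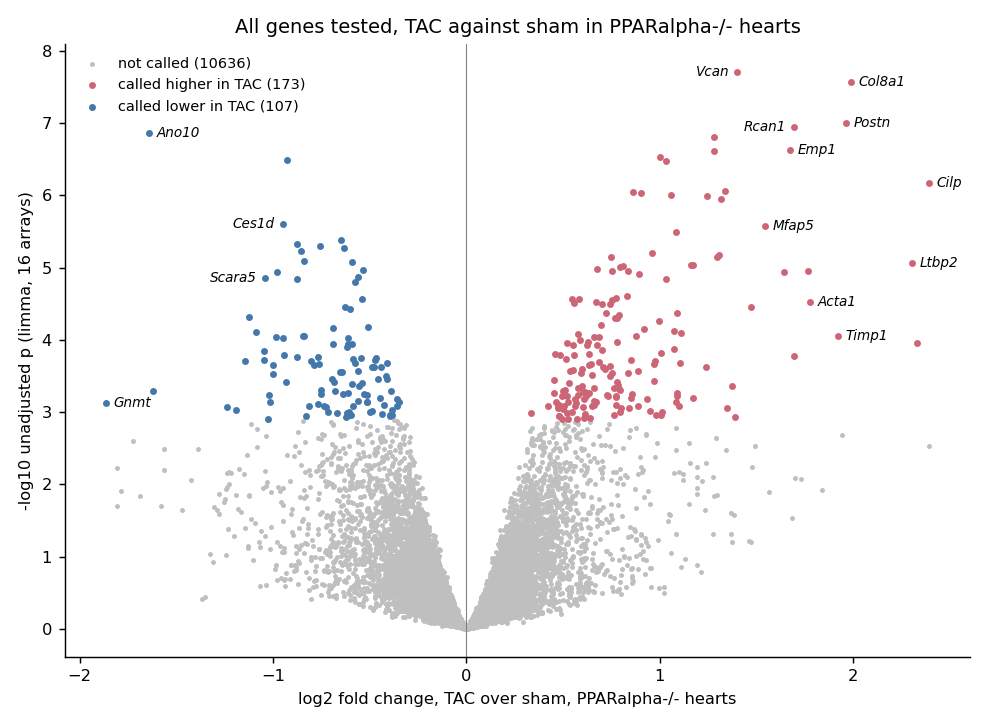
Each point is 1 of the 10916 genes tested; the x axis is the log2 fold change of TAC over sham in PPARalpha-/- hearts and the y axis the negative log10 of limma's unadjusted p. The 173 genes called higher are red and the 107 called lower blue; among called genes Cilp lies farthest right at 2.39, and Gnmt farthest left at -1.86.

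In what follows, a signal is given array by array in the order of replicates 1 to 4, and a log2 difference of TAC minus sham carries its standard error after the sign ±. Genes are described in 28 lists by role, with 976 entries of which 812 passed the filter on dim genes. Counts and medians below are over those. Lists and members were chosen with earlier results of these data known. A list's count beside the share over all genes is thus a description and no test of enrichment. In a tissue extract, fewer cells of a type and less RNA in each cell cannot be told apart.

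Some genes of the hypertrophic and fetal programme were among the clearest rises. Of 21 measured genes for natriuretic peptides, fetal sarcomere proteins and stress-response proteins, 7 were called higher and none lower (background 1.58% and 0.98%), with a median log2 difference of 0.43 against 0.00026 over all genes. A positive difference was found for 13 of the 21 and a negative one for 8. Without TAC replicates 2 and 3 and wild-type TAC replicate 3, 4 were called higher. With spike-in signal as a covariate 4 were called higher too. Nppa encodes atrial natriuretic peptide, a hormone that cardiomyocytes release under stretch. Its signal was 25961, 27242, 22314 and 29135 on the sham arrays and 66546, 56612, 55592 and 69234 on the TAC arrays, which do not overlap, a 2.37-fold rise (log2 1.24 ± 0.16, adjusted p = 0.000659). Acta1, skeletal alpha-actin and the actin of the fetal heart, read 26188, 19004, 10504 and 16564 and then 65529, 59303, 45423 and 68104, a 3.43-fold rise (log2 1.78 ± 0.30, adjusted p = 0.00564). The lowest TAC array stood above the highest sham array, which the choice of the largest rises required. The sham arrays themselves spread widely.

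Proteins of the Z-disc, intercalated disc and titin filament rose with them. Fhl1, a LIM protein of the sarcomere's stretch sensor, read 7594, 7350, 8203 and 7211 on the sham arrays and 17211, 17553, 13936 and 15755 on the TAC arrays (log2 1.08 ± 0.15, adjusted p = 0.00165). Xirp1, an actin-binding protein of the intercalated disc, rose from 1934, 2420, 2018 and 2097 to 2843, 5728, 5279 and 3648 (log2 1.00 ± 0.18, adjusted p = 0.00831), with TAC replicates 2 and 3 highest. For the titin-binding ankyrin-repeat gene Ankrd23 the signals were 11293, 11220, 9822 and 10364 and 17284, 20428, 16650 and 22423 (log2 0.84 ± 0.13, adjusted p = 0.00287). Groups did not overlap for these 3 genes. Flnc (filamin C, log2 0.65 ± 0.13) and Des (desmin, log2 0.48 ± 0.11), both named after their values were seen, were called as well, but Flnc passed in 3 and Des in 2 of the 8 fits that each left out 1 array (adjusted p up to 0.0644 and 0.106). Averaging all probe sets of a gene left 4 of the 7 called and ended the calls of Fhl1, Flnc and Des (adjusted p = 0.40, 0.11 and 0.88).

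Several classical markers of hypertrophy varied too much between arrays, or moved too little, to be called. Myh7, the slow beta-myosin heavy chain, read 2555, 2407, 4863 and 8205 on the sham arrays and 5303, 14039, 9331 and 12100 on the TAC arrays, where 1 TAC array lay within the sham range (log2 1.27 ± 0.41, adjusted p = 0.132). Nppb, B-type natriuretic peptide, was at 45818, 41304, 30285 and 37122 and 55556, 50549, 43005 and 58185 (log2 0.43 ± 0.16, adjusted p = 0.194), and Ankrd1, a stretch-responsive ankyrin-repeat gene, had a log2 difference of 0.43 ± 0.17 (adjusted p = 0.210). The arrays of the groups overlapped for all 3 genes, and Nppb and Ankrd1 passed under quantile normalization (adjusted p = 0.031 and 0.016). Myh6, the fast alpha-myosin heavy chain of the adult mouse ventricle, read 76689, 86164, 72030 and 91518 and 77599, 64424, 62768 and 76259 (log2 -0.22 ± 0.12, adjusted p = 0.414; 0.01 on the log2 scale under quantile normalization). Myl1, an alkali light chain of fast muscle myosin named after its values were seen, rose from 6689, 6518, 4757 and 4873 to 13009, 13843, 9401 and 12321 (log2 1.09 ± 0.19, adjusted p = 0.00703).

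Of 26 genes of calcineurin and MEF2 signalling, 1 was called, near the 2.57% called over all genes, and that gene was Rcan1. Calcineurin is the calcium-activated phosphatase that releases NFAT to the nucleus, and Rcan1 is both a target and an inhibitor of it. Rcan1 read 4545, 3236, 2884 and 3104 on the sham arrays and 9098, 13430, 11204 and 10586 on the TAC arrays, a 3.24-fold rise (log2 1.70 ± 0.18, adjusted p = 0.000278), and all TAC arrays stood clear of the sham arrays. That separation was required by the choice of the largest rises. The other probe set of Rcan1 had a log2 difference of 2.23. Abra, an actin-binding protein of striated muscle that activates serum response factor signalling, read 1649, 834, 841 and 1123 and 1784, 5818, 3764 and 3640 (log2 1.69 ± 0.34, adjusted p = 0.0167). Its TAC replicate 1 lay close to the highest sham array, and the call was lost without TAC replicate 2 or 3 or sham replicate 2 or 3 (adjusted p 0.051 to 0.059).

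Promoter sequence is shown for 3 of these genes and a collagen gene. Serum response factor and NFAT, named above, bind short motifs that can be read there. Motifs of TEAD, AP-1 and SMAD factors were marked too, and MEF2 motifs were not searched for. Each run is the 250 bases before the start site as RefSeq gives it on build GRCm38.p6, written in the direction of the gene. Capitals mark matches, on either strand, to the CArG box of serum response factor, the TEAD core GGAATG, the NFAT core GGAAAA, the AP-1 site TGACTCA and, for SMAD factors, CAGACA in either direction.
Acta1, chr8:123894776-123895025, minus strand: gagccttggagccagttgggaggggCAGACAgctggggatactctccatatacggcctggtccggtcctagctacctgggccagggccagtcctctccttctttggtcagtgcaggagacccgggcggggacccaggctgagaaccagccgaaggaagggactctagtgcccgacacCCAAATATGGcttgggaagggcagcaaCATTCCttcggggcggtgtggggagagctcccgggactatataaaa
Rcan1, chr16:92400079-92400328, minus strand: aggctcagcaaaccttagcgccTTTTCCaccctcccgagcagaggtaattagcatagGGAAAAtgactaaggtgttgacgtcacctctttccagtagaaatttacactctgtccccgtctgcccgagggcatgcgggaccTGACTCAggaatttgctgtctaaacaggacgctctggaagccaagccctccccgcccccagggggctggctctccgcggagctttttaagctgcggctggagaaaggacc
Fhl1, chrX:56779433-56779682, plus strand: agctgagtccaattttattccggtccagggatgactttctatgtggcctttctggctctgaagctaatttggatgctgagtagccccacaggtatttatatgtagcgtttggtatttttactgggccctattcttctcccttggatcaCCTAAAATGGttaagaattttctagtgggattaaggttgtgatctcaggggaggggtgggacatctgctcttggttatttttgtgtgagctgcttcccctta
Col3a1, chr1:45311288-45311537, plus strand: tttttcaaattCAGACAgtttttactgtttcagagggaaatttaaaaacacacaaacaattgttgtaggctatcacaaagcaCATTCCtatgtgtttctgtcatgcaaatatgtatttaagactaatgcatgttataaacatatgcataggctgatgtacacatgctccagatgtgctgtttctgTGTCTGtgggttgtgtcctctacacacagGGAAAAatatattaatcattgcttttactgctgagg
The Acta1 window holds a CArG box at -73 to -64 from the start, a TEAD core at -46 to -41 and a SMAD core at -225 to -220. The Rcan1 window, which belongs to the start inside the gene, holds 2 NFAT cores and an AP-1 site; the window of its other start holds none of the 5 motifs. The Fhl1 window, 1 of 2 for that gene, has a CArG box at -102 to -93, and the Col3a1 window a TEAD core, an NFAT core and 2 SMAD cores.

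Such matches are common. Among 8846 tested genes with a window in the RefSeq table, 1.504% held a CArG box, 12.8% a TEAD core, 21.5% an NFAT core, 3.96% an AP-1 site and 15.7% a SMAD core. Among the 134 genes called higher with a window, the shares were 2.99%, 17.2%, 18.7%, 8.96% and 18.7% in the same order, which are 4, 23, 25, 12 and 25 genes. Among 86 genes called lower they were 2.33%, 11.6%, 22.1%, 3.49% and 14.0%. These shares are descriptions with no test, and a match is not evidence of binding.

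**Figure D2:**
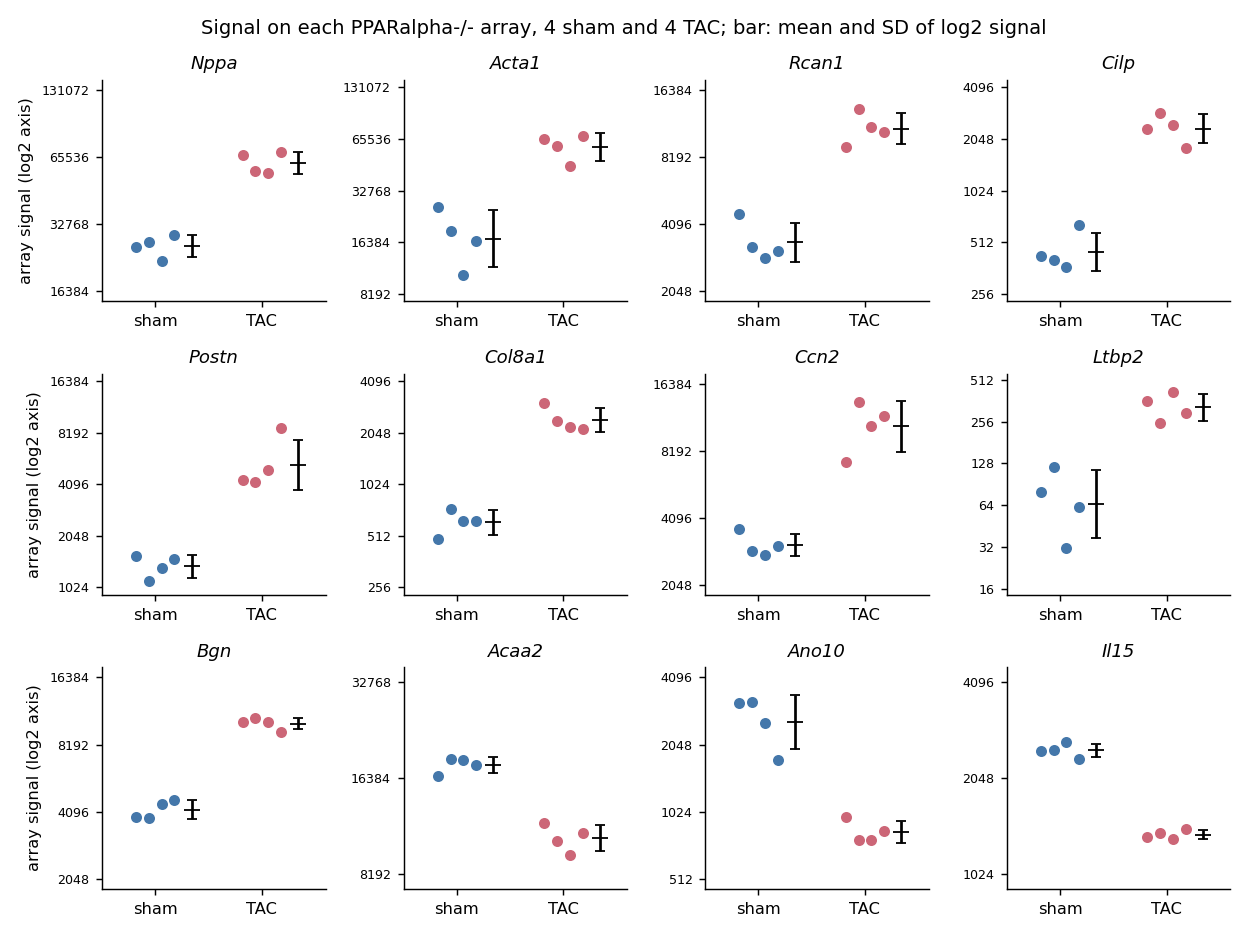
Array signal (log2 axis) of 12 genes on each of the 8 PPARalpha-/- arrays, 4 sham (blue) and 4 TAC (red), with the mean and SD of log2 signal as a black bar. Groups do not overlap for any of the 12. For Acta1, Rcan1, Cilp, Postn, Col8a1, Ccn2, Ltbp2 and Ano10 this was required by the choice of the largest rises and falls. Cilp rose 5.25-fold and Ano10 fell 3.12-fold.

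Of 20 measured fibrillar and network collagens, 8 were called higher and none lower (background 1.58% and 0.98%), and 12 were not called. Of the 20, 19 had a positive difference, and the median log2 difference was 0.69. Col8a1, a short-chain collagen that forms networks in vessels and in injured heart, read 493, 733, 626 and 629 on the sham arrays and 3052, 2406, 2224 and 2158 on the TAC arrays, a 3.97-fold rise (log2 1.99 ± 0.19, adjusted p = 0.000148). The main fibrillar collagens of the interstitium rose less: Col3a1 read 5933, 6436, 4810 and 7150 and 14743, 10346, 14662 and 14773 (log2 1.16 ± 0.18, adjusted p = 0.00284), with TAC replicate 2 the lowest of its group. Col1a2, a chain of type I collagen, rose from 2388, 2035, 1970 and 2655 to 5301, 5408, 5809 and 6252 (log2 1.34 ± 0.17, adjusted p = 0.000659). Neither gene's groups overlap, which for Col1a2 was required by the choice of the largest rises.

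Col5a2, a chain of the type V collagen that starts fibrils, rose 2.49-fold (log2 1.32 ± 0.17, adjusted p = 0.000685), and Col4a2, a basement membrane chain, 1.78-fold (log2 0.83 ± 0.14, adjusted p = 0.00521). Col1a1, the partner chain of Col1a2, was not called: it read 1351, 923, 584 and 1039 and 2788, 1901, 649 and 2316 (log2 0.85 ± 0.37, adjusted p = 0.279), with TAC replicate 3 among the sham arrays, and without that array its adjusted p was 0.026. The summed signal of the 20 collagens was 27184 to 35237 on the sham arrays and 55580 to 65975 on the TAC arrays, and that of 8 activated fibroblast markers, described further down, 7458 to 14172 and 18799 to 24361. The other 2 probe sets of Col1a2 had log2 differences of -0.69 and 1.499, and averaging them ended its call (adjusted p = 0.20). Without TAC replicates 2 and 3 and wild-type TAC replicate 3, 4 collagens stayed called.

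Of 20 enzymes and chaperones that fold, process and crosslink collagen, 3 were called higher and none lower (background 1.58% and 0.98%). The median was 0.24. Lox, lysyl oxidase, which crosslinks collagen and elastin, read 266, 217, 167 and 136 on the sham arrays and 595, 363, 760 and 759 on the TAC arrays, a 3.12-fold rise (log2 1.64 ± 0.25, adjusted p = 0.00287). Its relative Loxl1 rose 2.01-fold (log2 1.01 ± 0.20, adjusted p = 0.0157), and P4ha1, a prolyl hydroxylase subunit, 1.64-fold (log2 0.71 ± 0.15, adjusted p = 0.0198). The call of Loxl1 was lost without TAC replicate 3 or sham replicate 4 (adjusted p = 0.054 and 0.052), and P4ha1 passed in 2 of the 8 fits that left out 1 array.

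Matricellular and elastic fibre proteins, which sit in the matrix and signal to cells, held the largest rise among called genes. Of 24 measured, 10 were called higher and 1 lower (background 1.58% and 0.98%), and the median was 0.70. Cilp, a matrix protein that binds TGF-beta, read 426, 401, 367 and 645 on the sham arrays and 2337, 2902, 2484 and 1821 on the TAC arrays, a 5.25-fold rise (log2 2.39 ± 0.29, adjusted p = 0.000607). Postn, periostin, a product of activated fibroblasts, read 1552, 1110, 1321 and 1492 and 4327, 4212, 4966 and 8723 (3.90-fold, log2 1.97 ± 0.20, adjusted p = 0.000278), highest on TAC replicate 4. Every TAC array of both genes lay well above every sham array. A lack of overlap was required for both by the choice of the largest rises.

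Ccn2, connective tissue growth factor, read 3646, 2923, 2805 and 3052 on the sham arrays and 7279, 13594, 10542 and 11762 on the TAC arrays (log2 1.77 ± 0.27, adjusted p = 0.00287). Mfap5, a microfibril glycoprotein, went from 2307, 3123, 1474 and 2043 to 6938, 6156, 6336 and 5774 (log2 1.54 ± 0.21, adjusted p = 0.00146). The collagen-binding protein Sparc rose 1.68-fold (log2 0.75 ± 0.11, adjusted p = 0.00263), although the mean of its 3 probe sets was not called (adjusted p = 0.34). The exception was Efemp1, fibulin-3, an elastic fibre protein that fell: it read 400, 336, 376 and 324 and 201, 162, 200 and 246 (log2 -0.84 ± 0.16, adjusted p = 0.0116), with no overlap, and missed the threshold when arrays were centred (adjusted p = 0.079).

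Among 19 proteoglycans 4 were called higher and none lower (background 1.58% and 0.98%), with a median of 0.14. Vcan, versican, a large proteoglycan of provisional matrix, read 262, 278, 212 and 232 on the sham arrays and 668, 551, 765 and 617 on the TAC arrays (2.64-fold, log2 1.399 ± 0.13, adjusted p = 0.000148). Bgn, biglycan, a small leucine-rich proteoglycan, read 3896, 3828, 4440 and 4634 and 10306, 10731, 10311 and 9343 (log2 1.28 ± 0.14, adjusted p = 0.000326). Its relative Lum, lumican, which spaces collagen fibrils, rose 1.82-fold (log2 0.86 ± 0.11, adjusted p = 0.000659). Arrays of the groups were apart for these 3 and overlapped for Aspn, asporin (log2 1.09 ± 0.25, adjusted p = 0.0329), which passed in 2 of the 8 fits that left out 1 array. For Vcan, groups that do not overlap were required by the choice of the largest rises. Its other 7 probe sets ranged from -1.09 to 1.49.

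In the TGF-beta pathway 4 of 30 measured genes were called higher and none lower (background 1.58% and 0.98%), with a median of 0.13. The 4 were 3 secreted proteins and 1 receptor. Ltbp2, a microfibril protein of the latent TGF-beta binding family, read 79.4, 120, 31.3 and 62.5 on the sham arrays and 359, 250, 420 and 294 on the TAC arrays (4.94-fold, log2 2.30 ± 0.35, adjusted p = 0.00284). Fstl1, a secreted glycoprotein, rose from 1588, 2319, 1536 and 1889 to 5091, 4212, 4167 and 4348 (log2 1.30 ± 0.19, adjusted p = 0.00263). Neither gene's groups overlapped, which for Ltbp2 was required by the choice of the largest rises. Ltbp4 (log2 0.71 ± 0.15, adjusted p = 0.0190) and the receptor Tgfbr1 (log2 0.58 ± 0.13, adjusted p = 0.0297) passed in 5 and 2 of the 8 fits that left out 1 array. Ltbp4 was lost without TAC replicates 2 or 3 or sham replicate 3 (adjusted p 0.053 to 0.069). The ligand Tgfb2 had a log2 difference of 0.42 ± 0.25 (adjusted p = 0.451).

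Of 20 matrix metalloproteinases and their inhibitors, 2 were called higher and none lower (background 1.58% and 0.98%), with a median of 0.22. Timp1, the inducible inhibitor, read 307, 359, 92.0 and 397 on the sham arrays and 1121, 662, 1203 and 931 on the TAC arrays (3.79-fold, log2 1.92 ± 0.36, adjusted p = 0.0116). Sham replicate 3 was the lowest array and lay apart from the other 3. Mmp2, a gelatinase, rose 1.85-fold with overlapping groups (log2 0.89 ± 0.21, adjusted p = 0.0385) and passed in 2 of the 8 fits that left out 1 array.

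**Figure D3:**
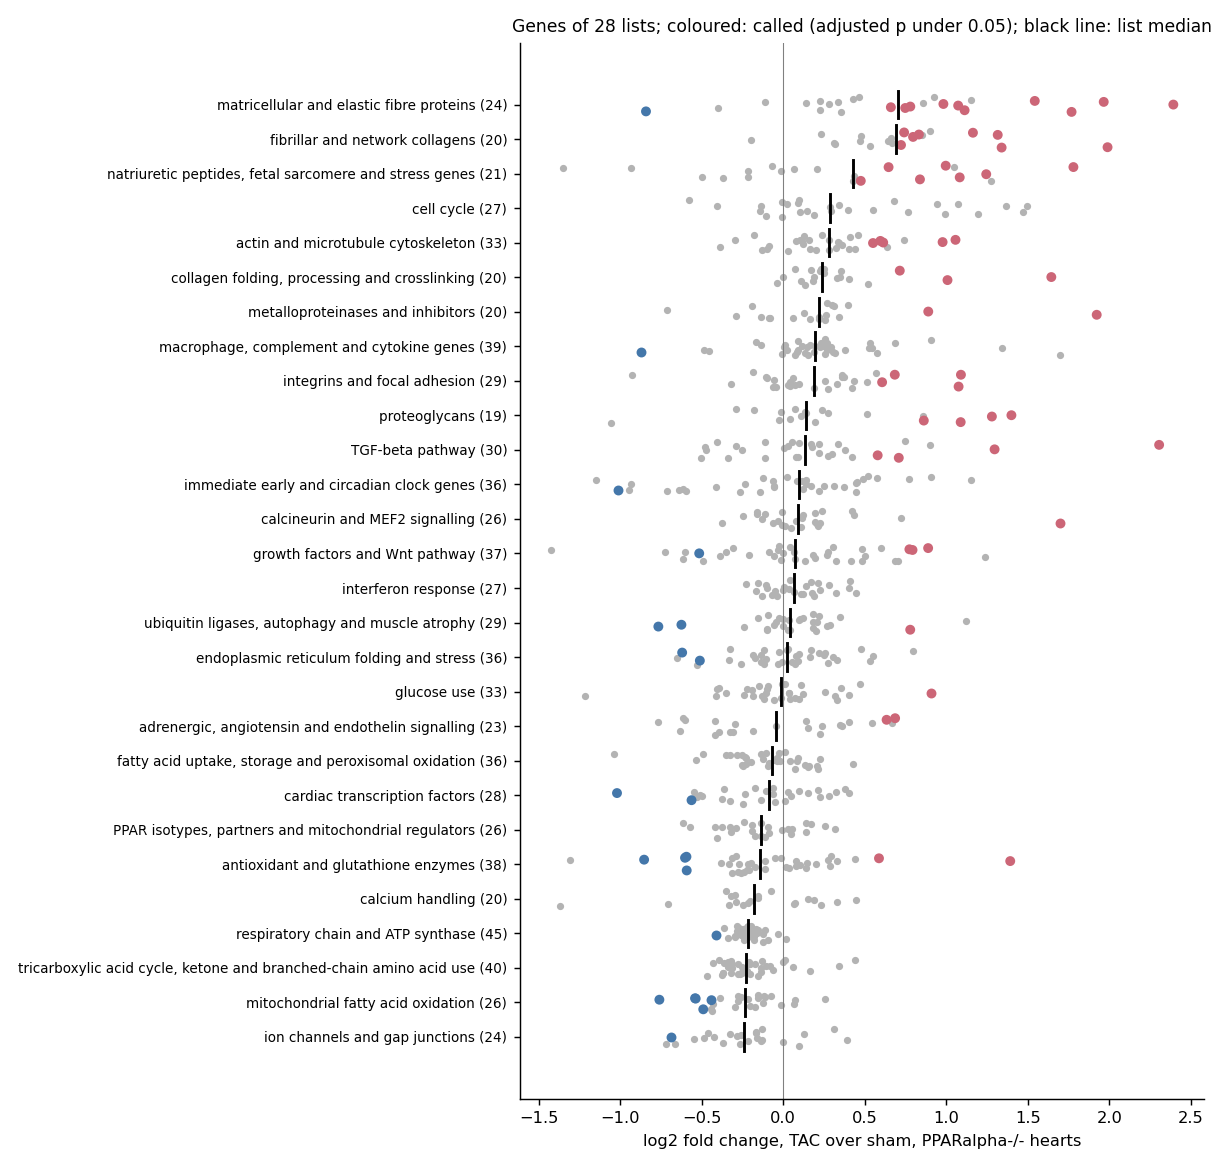
Log2 fold change of TAC over sham in PPARalpha-/- hearts (x axis) for each measured gene of 28 lists (rows, with the number measured). Red and blue points are called higher and lower, grey points not called, and the black line is the list median, which runs from -0.24 for ion channels to 0.70 for matricellular proteins.

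Genes that tie cells to the matrix and build the cytoskeleton were called in 1 direction. Of 29 integrin and focal adhesion genes, 4 were called higher and none lower (background 1.58% and 0.98%), with a median of 0.19. Itgbl1, an integrin-beta-like secreted protein, read 349, 391, 316 and 414 on the sham arrays and 796, 854, 674 and 766 on the TAC arrays (log2 1.08 ± 0.20, adjusted p = 0.0108). Cd44, the hyaluronan receptor, had a log2 difference of 1.09 ± 0.25, Actn1, alpha-actinin of focal adhesions, of 0.68 ± 0.14, and Zyx, zyxin, of 0.61 ± 0.15 (adjusted p = 0.0323, 0.0176 and 0.0470). Cd44, Actn1 and Zyx passed in 4, 6 and 1 of the 8 fits that left out 1 array, Actn1 being lost without TAC replicate 2 or sham replicate 2 (adjusted p = 0.065 and 0.056). With spike-in signal as a covariate none of the 29 was called (Itgbl1 adjusted p = 0.053).

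Of 33 actin and microtubule genes, 5 were called higher and none lower (background 1.58% and 0.98%). Of the 33, 27 had a positive difference, and the median was 0.28. Ckap4, which anchors the endoplasmic reticulum to microtubules, read 831, 701, 837 and 686 on the sham arrays and 1633, 1858, 1566 and 1317 on the TAC arrays (log2 1.06 ± 0.13, adjusted p = 0.000659). Vim, vimentin, the intermediate filament of fibroblasts and endothelium, read 9298, 10235, 7378 and 11169 and 13627, 13630, 14700 and 14976 (log2 0.60 ± 0.12, adjusted p = 0.0198). Neither overlapped. Capg, Tubb2a and Tpm4, which cap actin filaments, form microtubules and coat actin, had log2 differences of 0.98 ± 0.20, 0.61 ± 0.14 and 0.55 ± 0.12. Averaging all probe sets per gene left 1 of the 5 called and ended the call of Ckap4 (adjusted p = 0.080), whose log2 difference was 0.35 (adjusted p = 0.36) without probe sets whose names end in _x_at or _s_at, and Tubb2a had the opposite sign (-0.33) on its only other probe set. Capg was lost without TAC replicate 3 (adjusted p = 0.057), and Vim, Tubb2a and Tpm4 passed in 4, 3 and 2 of the 8 fits that left out 1 array.

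The rest of the 20 largest rises, counted without unnamed transcripts, were a mixed set. Emp1, an epithelial membrane protein, read 827, 873, 535 and 1024 on the sham arrays and 2220, 3120, 2381 and 2475 on the TAC arrays (log2 1.67 ± 0.19, adjusted p = 0.000326). Vgll3, a cofactor of the TEAD transcription factors, read 91.4, 112, 185 and 129 and 474, 269, 359 and 317 (log2 1.47 ± 0.25, adjusted p = 0.00607). Aldh1a2, the enzyme that makes retinoic acid, rose from 227, 206, 234 and 300 to 578, 476, 553 and 807 (log2 1.31 ± 0.19, adjusted p = 0.00259). That the groups of these 3 genes do not overlap was required by the choice of the largest rises. Krt18, keratin 18 (log2 1.35 ± 0.32), and Mt2, a metallothionein (log2 1.39 ± 0.35), were called at adjusted p = 0.0391 and 0.0466 and passed in 2 and 1 of the 8 fits that left out 1 array.

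Markers of cell types were read to see which of them moved beside these genes. All 8 measured markers of activated fibroblasts had a positive difference and 5 were called: Cilp, Ltbp2, Postn, the homeobox gene Meox1 (log2 1.37 ± 0.30) and the matricellular gene Thbs4 (log2 1.07 ± 0.21, named after its values were seen). Their summed signal, 7458 to 14172 on the sham arrays and 18799 to 24361 on the TAC arrays, was 12986 to 19815 on the wild-type sham arrays and 15760 to 22691 on the wild-type TAC arrays. Meox1 passed in 4 of the 8 fits that left out 1 array, and Thbs4 was lost without TAC replicate 2 (adjusted p = 0.053).

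Markers of resident fibroblasts split. Of 12, Lox, Mfap5 and Lum were called higher and Scara5 lower, with a median of 0.40 and a summed signal of 66294 to 75883 on the sham arrays and 73438 to 84663 on the TAC arrays. Scara5, a ferritin receptor of resting fibroblasts, read 962, 1159, 1193 and 894 and 525, 414, 708 and 429 (log2 -1.04 ± 0.16, adjusted p = 0.00319), with all TAC arrays below all sham arrays. The choice of the largest falls required that its groups do not overlap. The lineage markers Tcf21, Pdgfra and Dpt, named after their values were seen, had log2 differences of -0.11 ± 0.17, 0.50 ± 0.21 and -0.19 ± 0.14 (adjusted p = 0.833, 0.252 and 0.561); that of Tcf21 changed sign when arrays were centred (0.02). Lox, Mfap5 and Lum are matrix genes described above. The part of these markers in the matrix results was not tested.

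None of 12 macrophage, 11 endothelial, 8 pericyte or 14 cardiomyocyte markers was called by limma, near the 2.57% called over all genes. In the same order, 1, 2, 3 and 3 had an unadjusted p under 0.05, and 0, 0, 1 and 1 were called with trended and robust variances. The macrophage markers had a median of 0.20, and 11 of 12 were positive, with summed signals of 28264 to 32301 on the sham arrays and 32112 to 39459 on the TAC arrays. Endothelial markers had a median of 0.10 and pericyte markers of -0.07. The cardiomyocyte markers had a median of -0.21, with 12 of 14 negative, but -0.08 with centred arrays and 0.00 under quantile normalization.

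**Figure D4:**
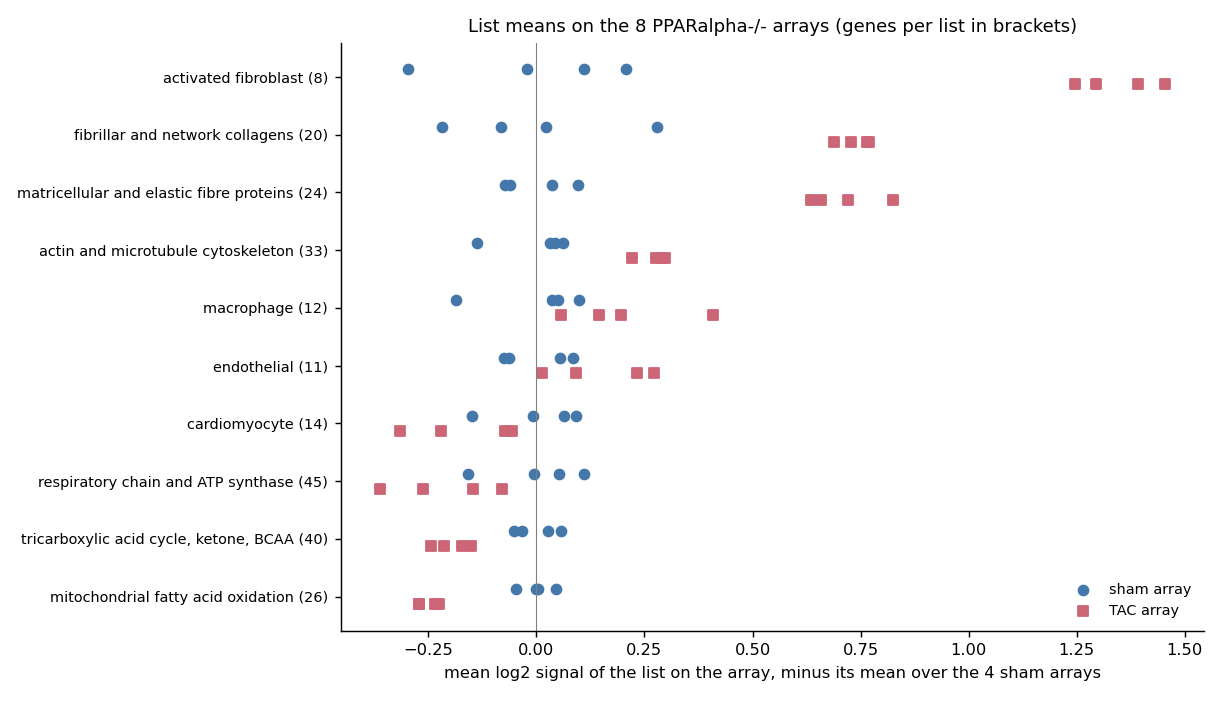
Mean log2 signal of 10 gene lists on each PPARalpha-/- array (x axis), relative to the mean of the 4 sham arrays; blue circles are sham and red squares TAC arrays. TAC arrays stand 1.25 to 1.45 above 0 for activated fibroblast markers and 0.69 to 0.77 above it for collagens, and 0.23 to 0.27 below it for mitochondrial fatty acid oxidation.

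Mitochondrial fatty acid oxidation, the pathway PPARalpha governs, was lower after TAC at several steps. Of 26 measured genes, 5 were called lower and none higher (background 0.98% and 1.58%), 23 had a negative difference, and the median was -0.24. Acaa2, the thiolase that ends each round of beta-oxidation, read 16675, 18857, 18706 and 17950 on the sham arrays and 11838, 10437, 9456 and 11005 on the TAC arrays, a 1.69-fold fall (log2 -0.76 ± 0.11, adjusted p = 0.00230). The isomerases Ech1 and Eci1, which prepare unsaturated chains for oxidation, read 25753, 30043, 25302 and 25845 and 14010, 15922, 14295 and 14296 on the sham arrays. On the TAC arrays they read 19910, 18017, 16666 and 18901 and 10865, 10195, 9448 and 9832 (log2 -0.54 ± 0.09 and -0.54 ± 0.08, adjusted p = 0.00541 and 0.00287). Every TAC array lay below every sham array for these 3 genes.

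Etfb, a subunit of the electron transfer flavoprotein, had a log2 difference of -0.49 ± 0.10 and Hadh, the short-chain hydroxyacyl-CoA dehydrogenase, of -0.44 ± 0.09 (adjusted p = 0.0190 and 0.0190). Both missed the threshold without TAC replicate 2 (adjusted p = 0.059 for both), TAC replicate 3 (0.069 and 0.067) or sham replicate 2 (0.056 and 0.062), and Etfb also without sham replicate 4 (0.068). Acadm, medium-chain acyl-CoA dehydrogenase, read 30646, 30484, 30665 and 30920 and 23732, 25517, 25375 and 26699 (log2 -0.28 ± 0.09, adjusted p = 0.111): it missed the threshold although its groups do not overlap. With centred arrays the median was -0.11, against 0.13 for all genes, and Acaa2 alone stayed called. Without TAC replicates 2 and 3 and wild-type TAC replicate 3, 1 of the 26 was called. Spike-in signal as a covariate left 3 called. Ech1 and Eci1 missed the threshold without those 3 arrays (adjusted p = 0.108 and 0.070). They also missed it when the 8 arrays were fitted alone (adjusted p = 0.064 and 0.051).

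Of 36 genes that take up and store fatty acids or oxidise them in peroxisomes, none was called by limma (8 at an unadjusted p under 0.05; 1 called lower with trended and robust variances), and the median was -0.07 (0.06 with centred arrays). Cd36, the fatty acid translocase, read 15520, 16700, 16079 and 13327 on the sham arrays and 16276, 15754, 16093 and 17282 on the TAC arrays (log2 0.09 ± 0.11, adjusted p = 0.764). Acot2, a mitochondrial thioesterase, had a log2 difference of -1.04 ± 0.28 (adjusted p = 0.0670); it was at 643 on TAC replicate 3 and called without that array (adjusted p = 0.026) or without TAC replicate 1 (0.044). None of 26 PPAR isotypes, partners and mitochondrial regulators was called by limma (7 at an unadjusted p under 0.05; 0 with trended variances, 2 lower under quantile normalization and 1 lower with probe set means), with a median of -0.14; Ppargc1a, the coactivator PGC-1alpha, was at -0.29 ± 0.22 (adjusted p = 0.570) and Rxrg, a retinoid X receptor, at -0.32 ± 0.09 (adjusted p = 0.0670; 0.036 under quantile normalization).

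In the remaining mitochondrial pathways small negative differences were shared by nearly all genes while few were called. Of 45 respiratory chain and ATP synthase genes, 44 had a negative difference and Ndufv1, a core subunit of complex I, was called (31747, 36502, 29943 and 33666 on the sham arrays, 25912, 24584, 22978 and 25632 on the TAC arrays, log2 -0.41 ± 0.09, adjusted p = 0.0243). That single call among 45 is near the 2.57% called over all genes. The list median was -0.22, but -0.09 with centred arrays, -0.05 under quantile normalization and -0.10 without TAC replicates 2 and 3. The call of Ndufv1 was lost without TAC replicates 2 or 3 or sham replicates 2 or 4 (adjusted p 0.070 to 0.079). Of 40 genes of the tricarboxylic acid cycle, ketone and branched-chain amino acid use, none was called by limma (17 at an unadjusted p under 0.05; 6 called lower with trended variances), 35 were negative and the median was -0.23 (-0.10 with centred arrays). Cs, citrate synthase, read 27292, 29820, 26315 and 28804 and 23657, 23347, 22760 and 20619, with no overlap and an adjusted p of 0.0546.

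Among 33 genes of glucose use, 1 was called, near the 2.57% called over all genes, and the median was -0.01 (0.11 with centred arrays and 0.02 under quantile normalization). Pfkp, the platelet isoform of phosphofructokinase, a control point of glycolysis, read 1171, 1033, 953 and 1017 on the sham arrays and 1799, 2056, 2235 and 1735 on the TAC arrays (1.87-fold, log2 0.90 ± 0.11, adjusted p = 0.000659). Pdk4, a kinase that inhibits the pyruvate dehydrogenase complex, read 14341, 11063, 6978 and 8048 and 11883, 12188, 12558 and 12186, with overlapping groups (log2 0.33 ± 0.21, adjusted p = 0.4997).

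None of 20 calcium handling genes was called by limma (6 at an unadjusted p under 0.05; 2 called lower with trended variances), and the median was -0.18 (-0.05 with centred arrays). Atp2a2, the calcium pump SERCA2, read 74836, 82255, 64876 and 79196 on the sham arrays and 71430, 62756, 55934 and 72223 on the TAC arrays, with overlap (log2 -0.20 ± 0.13, adjusted p = 0.494; 0.00048 under quantile normalization). Hrc, a calcium-binding protein of the sarcoplasmic reticulum, read 24803, 24830, 25179 and 25085 and 19755, 18669, 19745 and 20344, lower on every TAC array (log2 -0.35 ± 0.09, adjusted p = 0.0589).

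Of 24 ion channel and gap junction genes 1 was called, against 2.57% over all genes. Of the 24, 20 had a negative difference, and the median was -0.24, the lowest of the 28 lists. Kcnj5, a subunit of the muscarinic potassium channel, read 666, 710, 801 and 909 on the sham arrays and 474, 435, 509 and 488 on the TAC arrays (log2 -0.69 ± 0.13, adjusted p = 0.0100). Its other probe set had a log2 difference of 0.22, and with centred arrays the adjusted p was 0.11. Kcnip2, the subunit that shapes the transient outward current, was lower on every TAC array without passing (log2 -0.49 ± 0.13, adjusted p = 0.0736).

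Of 23 adrenergic, angiotensin and endothelin genes, 2 were called higher and none lower (background 1.58% and 0.98%). The median was -0.05 (0.08 with centred arrays). Ace, angiotensin-converting enzyme, read 450, 467, 615 and 427 on the sham arrays and 701, 758, 789 and 762 on the TAC arrays (log2 0.63 ± 0.13, adjusted p = 0.0186). Grk5, a kinase that desensitises beta-adrenergic receptors, read 1379, 1142, 903 and 1149 and 1625, 1813, 2118 and 1755 (log2 0.69 ± 0.13, adjusted p = 0.0116). Groups did not overlap for either. Ace was lost without TAC replicates 2 or 3 or sham replicates 2 or 4 (adjusted p 0.055 to 0.067), and neither was called on the mean of its probe sets (adjusted p = 0.36 and 0.39).

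Antioxidant and glutathione genes moved both ways: 4 of 38 were called lower and 2 higher (background 0.98% and 1.58%), with a median of -0.14. Glutathione transferases made up 3 of the 4 called lower: Gstt1 read 1465, 1538, 1710 and 1561 on the sham arrays and 883, 866, 868 and 851 on the TAC arrays (log2 -0.85 ± 0.12, adjusted p = 0.00248), and Gstm1 and Gstk1 had log2 differences of -0.59 ± 0.09 and -0.59 ± 0.11. Nnt, a transhydrogenase of mitochondria that supplies NADPH, read 29235, 28077, 30835 and 34447 and 19197, 18560, 22467 and 20508 (log2 -0.60 ± 0.10, adjusted p = 0.00630). Gpx3, the secreted glutathione peroxidase, rose 1.502-fold (log2 0.59 ± 0.11, adjusted p = 0.0121), and Mt2 was the other gene called higher. With centred arrays Gstt1 alone of the 4 stayed called lower, and Gstk1 was lost without TAC replicate 2 (adjusted p = 0.054).

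Of 39 macrophage, complement and cytokine genes, 33 had a positive difference and the median was 0.20. A single gene was called, near the 2.57% called over all genes, and it fell. Il15, a cytokine that muscle also makes, read 2494, 2504, 2648 and 2356 on the sham arrays and 1337, 1378, 1321 and 1421 on the TAC arrays (1.83-fold lower, log2 -0.87 ± 0.12, adjusted p = 0.00221). Its arrays lay tightly within each group, and with centred arrays the adjusted p was 0.055. None of 27 interferon response genes was called by limma (3 at an unadjusted p under 0.05; 1 called higher with trended variances; median 0.07), the smallest p being that of Ifitm3 (log2 0.41 ± 0.11, adjusted p = 0.0803).

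No cell cycle gene of 27 was called by limma (11 at an unadjusted p under 0.05; 1 called higher with trended variances), while 20 were positive, with a median of 0.28. Ccne1, cyclin E1, read 136, 248, 67.1 and 149 on the sham arrays and 502, 207, 409 and 496 on the TAC arrays (log2 1.49 ± 0.42, adjusted p = 0.0789; -0.56 on its other probe set), and Ccnd2, cyclin D2, had a log2 difference of 0.34 ± 0.11 (adjusted p = 0.112). Of 36 genes of endoplasmic reticulum folding and stress, the stress protein Herpud1 (-0.62 ± 0.15) and the chaperone Canx (-0.51 ± 0.12) were called lower. The background was 0.98%, and the list median was 0.02. Herpud1 and Canx each passed in 2 of the 8 fits that left out 1 array. Neither was called with centred arrays (adjusted p = 0.20 and 0.22).

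Of 28 cardiac transcription factors, 2 were called lower and none higher (background 0.98% and 1.58%), with a median of -0.09. Hopx, the homeodomain-only protein that restrains serum response factor, read 34973, 40410, 38879 and 39460 on the sham arrays and 25413, 25394, 25650 and 27554 on the TAC arrays (log2 -0.56 ± 0.09, adjusted p = 0.00319). Foxo3, a forkhead factor of atrophy and stress resistance, read 3492, 3823, 2631 and 4244 and 2596, 1571, 987 and 2194 (log2 -1.02 ± 0.23, adjusted p = 0.0329), lowest on TAC replicate 3, and passed in 3 of the 8 fits that left out 1 array. With centred arrays neither was called (adjusted p = 0.11 and 0.052).

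Of 36 immediate early and circadian clock genes 1 was called, Hlf, which is near the 2.57% called over all genes. Hlf is a PAR bZIP factor driven by the clock, and it read 293, 506, 469 and 570 on the sham arrays and 266, 193, 246 and 188 on the TAC arrays (log2 -1.01 ± 0.24, adjusted p = 0.0366). Its family members Tef and Dbp and the clock gene Per3, named after their values were seen, had log2 differences of -0.64 ± 0.18, -0.93 ± 0.64 and -1.15 ± 0.37 (adjusted p = 0.0820, 0.527 and 0.127). Dbp, whose level swings over the day, read 715, 4064, 1143 and 2219 on the sham arrays and 2040, 518, 1027 and 509 on the TAC arrays, lowest on sham replicate 1 and highest on sham replicate 2 among the sham arrays. No source used here gives the hour at which hearts were taken. Without sham replicate 1 Tef and Per3 were called (adjusted p = 0.0083 and 0.045). Hlf passed in 2 of the 8 fits that left out 1 array.

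Secreted growth factors and their binding proteins gave 3 calls higher and 1 lower among 37 genes (background 1.58% and 0.98%). The median was 0.07. Hbegf, a membrane-anchored growth factor of the EGF family, read 1547, 1592, 1399 and 1740 on the sham arrays and 2248, 3330, 2822 and 3331 on the TAC arrays (log2 0.89 ± 0.19, adjusted p = 0.0203). Igfbp7, a matrix-bound binding protein of growth factors, read 7209, 7577, 5862 and 7538 and 13448, 11798, 12909 and 10611 (log2 0.79 ± 0.12, adjusted p = 0.00284). Igfbp6 was called higher (log2 0.77 ± 0.18) and Fgf13, an intracellular regulator of sodium channels, lower (log2 -0.52 ± 0.12). Groups did not overlap for these 4, and Hbegf, Igfbp6 and Fgf13 passed in 3, 2 and 1 of the 8 fits that left out 1 array.

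Among 29 genes of ubiquitin ligases, autophagy and muscle atrophy, 1 was called higher and 2 lower (background 1.58% and 0.98%). The median was 0.04. Asb15, a muscle substrate adaptor of cullin ubiquitin ligases, read 3794, 4213, 4561 and 4119 on the sham arrays and 2246, 2337, 2713 and 2524 on the TAC arrays (log2 -0.77 ± 0.15, adjusted p = 0.0167). Its relative Asb14 was called lower (log2 -0.62 ± 0.16, adjusted p = 0.0469) and the collagen-degrading protease Ctsk, cathepsin K, higher (log2 0.78 ± 0.17, adjusted p = 0.0260). Asb15 was lost without TAC replicate 2 or sham replicate 3 (adjusted p = 0.058 and 0.053), Ctsk passed in 3 of the 8 such fits, and Asb14 in none of them.

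The largest falls were mostly of genes on none of the lists. Gnmt, glycine N-methyltransferase, which uses S-adenosylmethionine, read 225, 338, 473 and 285 on the sham arrays and 74.3, 44.3, 94.2 and 189 on the TAC arrays (3.64-fold lower, log2 -1.86 ± 0.44, adjusted p = 0.0366). Ano10, a member of the anoctamin family of membrane proteins, read 3139, 3190, 2558 and 1750 and 967, 762, 763 and 838 (3.12-fold lower, log2 -1.64 ± 0.18, adjusted p = 0.000278). For both, the lack of overlap between groups was required by the choice of the largest falls. Gnmt passed in 2 and Ano10 in 8 of the 8 fits that left out 1 array.

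Several enzymes were also among the 20 largest falls. Inmt, another small-molecule methyltransferase, read 1203, 1864, 2297 and 1396 on the sham arrays and 754, 979, 680 and 635 on the TAC arrays (log2 -1.12 ± 0.20, adjusted p = 0.00768). Ces1d, a carboxylesterase that hydrolyses triacylglycerol, read 2714, 3616, 3149 and 4100 and 1734, 1577, 1813 and 1832 (log2 -0.95 ± 0.13, adjusted p = 0.00144). Pla2g5, a secreted phospholipase, had a log2 difference of -1.05 ± 0.21 (adjusted p = 0.0174) and was lost without TAC replicate 2 or sham replicate 2 (adjusted p = 0.060 and 0.055). Wee1, the kinase that holds cells before mitosis, read 443, 595, 590 and 652 and 290, 313, 308 and 236 (log2 -0.98 ± 0.19, adjusted p = 0.0116). The choice of the largest falls required that the groups of these 4 do not overlap.

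Further large falls lay in signalling and chromatin. Ramp1, the partner of the receptor for calcitonin gene-related peptide, read 434, 465, 577 and 580 on the sham arrays and 295, 185, 309 and 195 on the TAC arrays (log2 -1.09 ± 0.20, adjusted p = 0.0110); its other 2 probe sets were at -0.79 and 0.59. Penk, the precursor of enkephalins, fell (log2 -1.002 ± 0.21, adjusted p = 0.0184), as did Kdm6b, a histone H3 lysine demethylase (log2 -1.04 ± 0.21, adjusted p = 0.0150). Penk was lost without TAC replicates 3 or 4 or sham replicate 4 (adjusted p 0.057 to 0.065), and Kdm6b without sham replicate 4 (0.051). Snx22, a sorting nexin, and C1qtnf4, a secreted C1q family protein, had log2 differences of -1.24 ± 0.30 and -1.14 ± 0.23 and passed in 1 and 4 of the 8 such fits.

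The 280 genes were then read in wild-type hearts. Their arrays are not among the 8 compared, but they enter each gene's estimate of spread in limma's fit over all 16 arrays. In wild-type hearts no gene was called between TAC and sham in limma's fit (0%, with 832 genes at an unadjusted p under 0.05 and a smallest adjusted p of 0.107). With trended and robust variances 1 gene, Nppa, was called. Of the 173 genes called higher without PPARalpha, 148 (85.5%) had a positive wild-type difference, against 50.0% of all genes, with a median of 0.21. Of the 107 called lower, 87 (81.3%) had a negative one, with a median of -0.16. With centred arrays these shares were 67.6% of the genes called higher, against 27.6% of all genes, and 95.3% of those called lower, against 72.4% of all. An unadjusted wild-type p under 0.05 was reached by 72 of the 280 (25.7%, against 7.62% of all genes), 70 of them in the same direction. Both p-values of a gene use the same estimate of spread. A gene called for its small spread thus tends to a small wild-type p too, so this excess is not independent support.

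**Figure D5:**
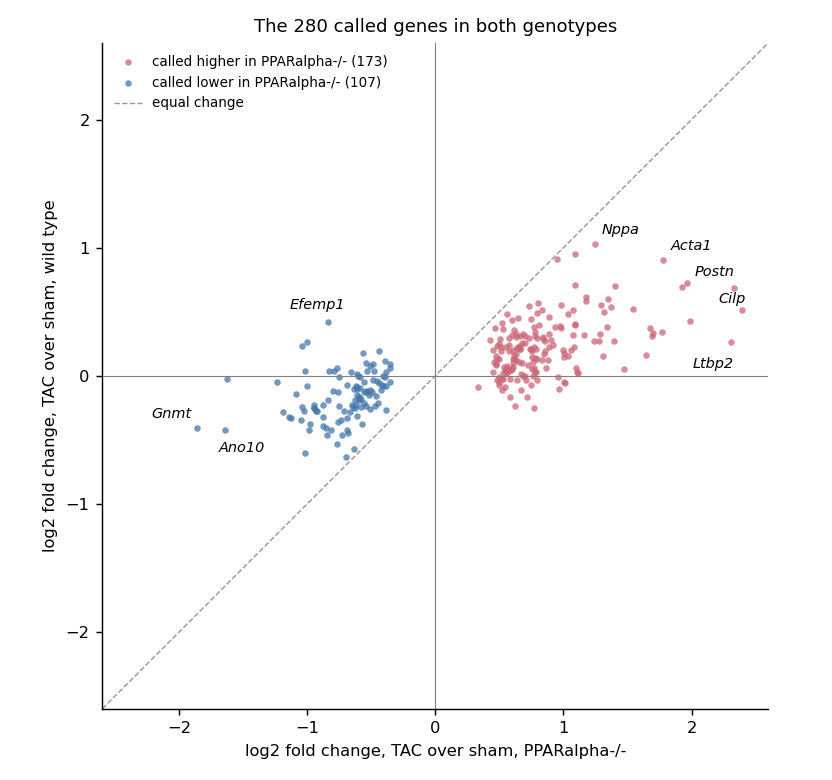
Log2 fold change of TAC over sham in PPARalpha-/- (x axis) and wild-type hearts (y axis) for the 280 genes called in PPARalpha-/- hearts, with the line of equal change dashed. The genes were chosen on the x axis, so their distance from the line is no test; 148 of the 173 red and 87 of the 107 blue points have the same sign in both.

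The named genes below were chosen on their PPARalpha-/- values, which stand beside the wild-type ones. Nppa read 23588, 20038, 17816 and 15482 on the wild-type sham arrays and 32398, 42485, 48346 and 33651 on the wild-type TAC arrays (log2 1.03 ± 0.16), against 1.24 without PPARalpha. Cilp read 998, 613, 950 and 379 and then 1435, 861, 916 and 802, with overlap (0.51 ± 0.29, against 2.39). Postn was at 0.73 against 1.97, Acta1 at 0.91 against 1.78, and Acaa2 at -0.13 against -0.76. The median over the 20 collagens was 0.40 in wild type and 0.69 without PPARalpha, and over the 45 respiratory chain genes 0.13 and -0.22. With centred arrays the respiratory chain medians were 0.01 and -0.09, and under quantile normalization -0.06 and -0.05, so their opposite signs were not kept there.

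Whether the response to TAC differed between genotypes was tested as an interaction over all 16 arrays. No gene passed (0%; 1128 genes at an unadjusted p under 0.05, smallest adjusted p 0.125). Hopx, Col8a1, Efemp1 and Rcan1 were among the 5 genes of smallest p. For Efemp1 the difference was -0.84 without PPARalpha and 0.42 in wild type, and for Hopx -0.56 and 0.17. With trended and robust variances, 13 genes passed: 8 with a larger rise without PPARalpha, among them Col8a1, Rcan1, Bgn, Lum and Emp1, and 5 lower there, Hopx, Ech1, Eci1, Hadh and Ano10. So in the fit used throughout, no named gene's response is shown to differ between genotypes.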

How the data were processed

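Per the labels and the series' design text, left ventricular RNA was hybridised to 1 Affymetrix 430 2.0 array per sample. The deposited values are signal intensity per probe set, which the authors made and scaled in GCOS 1.4 (named in the submitters' processing notes), to a trimmed mean of 500 on each array. Scaling to a fixed mean hides any change in total RNA. All 45101 probe sets were read, without 64 controls. Of the rest, 34945 named 1 gene, 932 several and 9160 none; 34741 symbols were updated by gene ID to RefSeq GRCm38.p6, and 204 were kept. Signals below 11.9, the table's 10th percentile, were set to it and log2 taken. The brightest probe set stood for each of 18193 genes, and the 40% with the lowest mean were left out, leaving 10916. A linear model with a term for each group of 4 arrays was fitted in limma 3.58.1 (R 4.3.3) over the 16 arrays, with Benjamini-Hochberg adjustment over all genes tested. Depth has no equivalent on arrays, whose number limits the precision. Genes were named by a rule. It took the 20 largest rises and 20 largest falls among called genes whose groups do not overlap. Unnamed transcripts and genes at the floor on every array of a group were left out of these. It also took the most significant of each list, a fixed panel and the smallest p of the other contrasts. Members and lists were chosen with earlier results of these data known. Alternatives covered floor, filter, probe set choice, scaling, spike-in signal, variance model, replicate number and single arrays.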

Additional observations from a re-analysis of the deposited data

Results flagged for a closer look

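Of 238 sets of 4 arrays examined, 11 (4.62%) had an array whose gap to its nearest neighbour, over the range of the set, was above Dixon's critical value for 4 samples; chance gives about 1 in 20. Sham replicate 2 was highest for 3 enzymes of fatty acid oxidation: Ech1 at 30042.5 (others 25301.8 to 25845.4), Eci1 at 15921.7 (14009.8 to 14295.8) and Hadh at 68450.3 (58839.5 to 59020.4). Sham replicate 4 was highest for Ankrd1 at 56620.5 (42769.1 to 43688.5), and sham replicate 1 for Ccnd2 at 5795.1 (4620.6 to 4700.2). Among the TAC arrays, replicate 2 was lowest for Col3a1 at 10346 (14662.2 to 14772.7). The same array was highest for Lum at 8554 (7429.4 to 7610.3) and for Actn1 at 1218.2 (1019.4 to 1040.1). Replicate 1 was lowest for Flnc at 2789.2 (3448.8 to 3594.7), replicate 3 lowest for Acot2 at 642.9 (1723.2 to 2085.9), and replicate 4 highest for Hopx at 27553.5 (25393.9 to 25649.6). The causes were not tested.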

How the results depend on the processing

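The 280 calls became 176 with centred arrays, 426 with trended and robust variances, 122 with probe sets averaged per gene, 117 with no filter on dim genes, 79 with the 8 arrays alone, 125 with spike-in signal as a covariate, 55 without wild-type TAC replicate 3 and KO TAC replicates 2 and 3, whose spike-in signal was extreme, and 110 to 274 leaving out single arrays. Wild-type calls were 1 with trended variances, with the lowest 60% left out and without those 3 arrays (0 to 2 leaving out single arrays). Interaction calls were 13 with trended variances and 1 with probe set means or no filter (0 to 1). The cause was not tested. A replicate block gave 220 calls; same-numbered arrays correlated at 0.013 to 0.14, and 2 of 4 best with their own number, so the numbers were not taken to pair the arrays. Every called gene tested kept its direction, except that 260 of 273 did with probe set means and 271 of 274 without _x_at and _s_at probe sets. Of 90 called genes named, 49 stayed called whichever array was left out and 21 in every fit. The sign turned for Myh6 (0.0061) and Atp2a2 (0.00048) with quantile normalization, Tubb2a without _x_at and _s_at probe sets (-0.33), and Tcf21 with centred arrays (0.019), probe set means (0.082) and without KO TAC replicate 4 (0.0098; -0.22 to 0.0098 leaving out single arrays).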
